A study of Mus musculus with 6 samples.

Results

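The YAP/TAZ-TEAD pathway is described here in the mouse melanoma line B16F10, whose cells make pigment, cultured in DMEM or RPMI with serum and with 10 µM GSK126 or with DMSO, its solvent. GSK126 inhibits EZH2, the enzyme of Polycomb repressive complex PRC2 that methylates histone H3. The 10 genes were chosen by name, out of 54838 genes in the deposited tables, for their roles in the pathway: the coactivator genes Yap1 and Wwtr1 (the gene of TAZ), the DNA-binding partner Tead1, the classical targets Ctgf, Cyr61 and Ankrd1, and the feedback or associated genes Amotl2, Lats2, Ajuba and Nuak2. They were picked with the GSK126-against-DMSO contrast of these same libraries known. Their differences between the groups are therefore a description: whether the fit across all genes called them is stated, but no p-value is given for them and nothing rests on those calls. The gene lists set beside them were also chosen with earlier results of these data known. Counts and shares called in those lists are likewise a description, and p-values of list genes are no independent support. RNA was sequenced from 3 GSK126 libraries, with 14250457 to 14713373 gene counts each, and 3 DMSO libraries, with 13594939 to 14072673. The labels give neither the length of treatment nor whether replicates were separate cultures, so p-values for other genes measure only the spread between these libraries, which may be technical.

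YAP and TAZ carry signals of cell shape, adhesion and density to the nucleus. When the Hippo kinases MST and LATS are active, they phosphorylate both proteins, which are then held in the cytoplasm or degraded. When the kinases are quiet, YAP and TAZ enter the nucleus, bind TEAD transcription factors and switch on target genes, several of which (Lats2 and Amotl2 among them) feed back on the pathway. In melanoma and other solid tumours the pair is known for links to invasion and drug tolerance. YAP and TAZ activity is set mainly by phosphorylation and location, which RNA counts do not measure.

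TEAD factors recognise the hexamer GGAATG, read on the other strand as CATTCC. RefSeq promoter windows of the GRCm38.p6 build, which run from 250 bases before to 50 after the annotated start, were found for 7 of the 10 genes, with Cyr61 listed as Ccn1. Tead1, Ctgf and Nuak2 had no entry in that table. All 7 genes had the hexamer in at least 1 window, whereas 16.6% of the 27025 genes in the table and 14.7% of all 32851 windows had it. The genes were picked as pathway genes, so the count is a description. The AP-1 motif TGANTCA and the CArG box of SRF, both read on either strand, were in none of these windows, against 7.81% and 1.63% of all windows. With only 9 windows and motifs this rare, their absence says little about these genes. In lists described below, the TEAD hexamer was found for 27.3% of 11 signature targets and 12.5% of 8 further YAP/TAZ targets. It was found for 33.3% of 12 SRF targets, 16.7% of 18 Hippo kinase genes and 66.7% of 6 other TEAD genes and cofactors. The windows below are those of the 2 lower genes with an entry (Amotl2 and Ajuba), of the abundant target Cyr61 and of Ankrd1, which was nearly silent. Capitals mark the TEAD hexamer, and each sequence runs 5′ to 3′ on the gene's strand.
Amotl2 (chr9:102717554-102717853, plus strand): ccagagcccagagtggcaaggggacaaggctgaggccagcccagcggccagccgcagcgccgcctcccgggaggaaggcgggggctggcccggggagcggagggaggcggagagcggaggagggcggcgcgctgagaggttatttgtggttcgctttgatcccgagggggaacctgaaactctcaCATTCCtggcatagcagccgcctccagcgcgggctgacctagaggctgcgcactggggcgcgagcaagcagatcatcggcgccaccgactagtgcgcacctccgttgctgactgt
Ajuba (chr14:54577612-54577911, minus strand): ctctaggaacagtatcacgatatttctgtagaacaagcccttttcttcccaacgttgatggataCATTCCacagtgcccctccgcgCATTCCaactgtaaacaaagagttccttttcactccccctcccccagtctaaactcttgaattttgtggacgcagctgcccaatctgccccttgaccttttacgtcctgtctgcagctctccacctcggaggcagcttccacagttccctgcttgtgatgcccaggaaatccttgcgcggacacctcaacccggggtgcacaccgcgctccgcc
Cyr61 (chr3:145649936-145650235, minus strand): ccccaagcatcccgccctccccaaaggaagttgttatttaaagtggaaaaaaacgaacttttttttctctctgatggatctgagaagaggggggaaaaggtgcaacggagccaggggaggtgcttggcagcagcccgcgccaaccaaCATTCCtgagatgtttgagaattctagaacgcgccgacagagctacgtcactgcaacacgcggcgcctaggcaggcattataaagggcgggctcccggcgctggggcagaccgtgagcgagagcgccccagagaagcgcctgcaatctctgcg
Ankrd1 (chr19:36119795-36120094, minus strand): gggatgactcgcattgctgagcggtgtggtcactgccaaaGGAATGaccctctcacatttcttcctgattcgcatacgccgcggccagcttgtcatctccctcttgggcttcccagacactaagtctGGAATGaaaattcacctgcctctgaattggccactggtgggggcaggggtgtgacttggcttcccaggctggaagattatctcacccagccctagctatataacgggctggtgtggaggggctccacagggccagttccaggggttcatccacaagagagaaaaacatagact

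In Amotl2 the match began 65 bases before the start, and in Cyr61 it lay farther upstream. Ajuba had 2 matches, at 186 and 164 bases before the start, and Ankrd1 had 2, at 210 and 123. The single match of Yap1 lay 141 bases upstream, and that of Wwtr1 136 or 170 bases upstream, counted from either of its 2 starts. Lats2 has 2 annotated starts, and its match lay at position 5 downstream of the first of them. The windows of Amotl2 and Lats2 lie inside the counted genes, whose positions, given below, start farther upstream. A match is only a run of letters; binding was not measured. Genes with this hexamer thus included Amotl2 and Ajuba, which were lower with GSK126, Yap1 and Wwtr1, which hardly differed, and Ankrd1, which was all but absent.

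**Figure D1:**
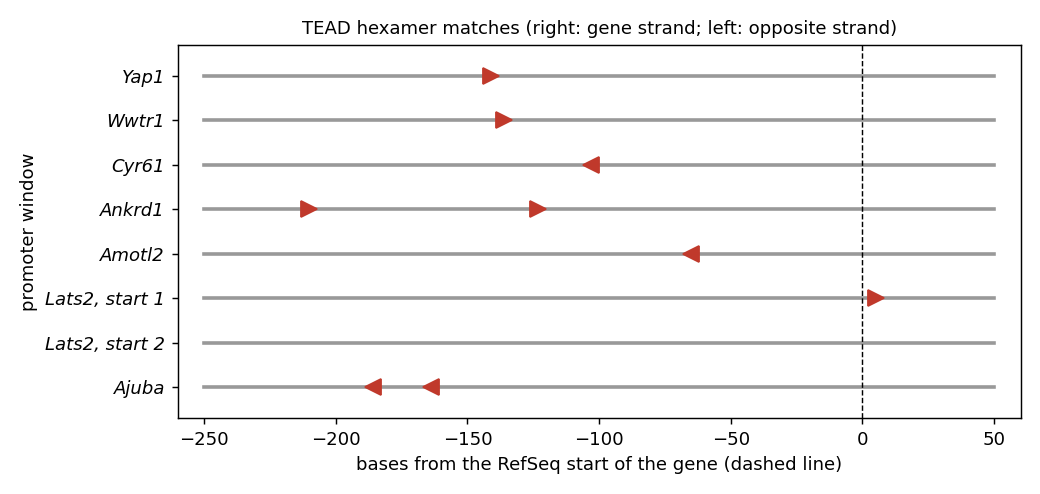
Positions of the TEAD hexamer in RefSeq promoter windows of 7 pathway genes, in bases from the annotated start (horizontal axis); each grey line is a window and each red triangle a match, pointing right on the gene's strand and left on the opposite strand. Each of the 7 genes has a match, and the second start of Lats2 has none.

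Reads per gene are given as CPM, scaled to library size with TMM factors. Levels of different genes are compared as the deposited FPKM, which divides by gene length. Cell type markers are the exception, given and summed as CPM without regard to length. The fit across all 13601 genes with enough reads (the quasi-likelihood test of edgeR, with a Benjamini-Hochberg threshold of 0.05) called 11.1% of them, 5.87% higher and 5.18% lower with GSK126. Among the 10 pathway genes, 8 had enough reads, 3 were called lower (Ctgf, Ajuba and Amotl2) and 0 higher, and because the genes were chosen with this contrast known, nothing is read from that count. At an unadjusted p under 0.05, 4 were lower and 1 higher, where 13.1% of all tested genes were lower and 14.4% higher (27.5% in all). DESeq2 and limma on FPKM each called 3 lower and 0 higher, where over all genes they called 5.11% and 4.65% lower, 5.82% and 5.07% higher, 10.9% and 9.72% in all. The groups did not overlap in 5 of the 8, against 34.4% of all tested genes. The median log2 fold change of the 8 was -0.39, against 0.00 over all tested genes. In RNA of whole cultures, fewer cells expressing a gene and less RNA per cell cannot be told apart. The library GSK126 replicate 3 lay away from its group on principal component 2, which held 18.7% of the variance, and the same count of 3 was called without it.

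Melanocyte markers were abundant, with a summed CPM over 7 genes of 22770 to 23940 with GSK126 and 21370 to 22570 with DMSO. Of these, Pmel, Dct, Mitf and Sox10 were higher with GSK126 and Mlana was lower (edgeR, 71.4% called, against 11.1% of all tested genes). The melanin enzyme genes Tyr and Tyrp1 were not called, with log2 fold changes of -0.00 (SE 0.07) and -0.08 (SE 0.07). The calls of Pmel and Mitf held with any 1 library left out. Those of Dct and Sox10 ended on removal of any library but GSK126 replicate 3, and neither was called by DESeq2. That of Mlana ended without GSK126 replicate 1, DMSO replicate 1 or DMSO replicate 2, and under limma. Macrophage, endothelial and keratinocyte markers (14 genes) summed to at most 1.33, 0.698 and 0.142 CPM per list in any library, and Adgre1, Cd14, Kdr, Cdh5, Tek, Krt5, Krt1, Krt10 and Trp63 had 0 reads. Of 7 fibroblast markers, only Col1a2 was above 2 CPM on average, and the list summed to 17.3 to 22.4 CPM with GSK126 and 23.2 to 26.5 CPM with DMSO. The groups did not overlap for Col1a2 (log2 fold change -0.36, SE 0.11), which edgeR did not call. The matrix genes Dcn and Lum of that list had 0 to 4 reads in each GSK126 library and 0 to 8 in each DMSO library. Ctgf is also a fibroblast gene, and the part of the Col1a2 level in its difference was not tested.

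The mRNAs of the coactivators differed little. Yap1 (GRCm38 chromosome 9, 7931999 to 8004596), the YAP gene, had 206, 195 and 204 CPM in GSK126 replicates 1 to 3, against 229, 220 and 217 CPM in DMSO replicates 1 to 3. Every GSK126 library was below every DMSO library, but the gap was small (log2 fold change -0.14, SE 0.04). Wwtr1 (chromosome 3, 57455649 to 57575910), the TAZ gene, went the other way, with 95.9, 92.6 and 96.9 CPM in the GSK126 replicates and 82.8, 89.1 and 86.0 CPM in the DMSO replicates. Its groups did not overlap either (log2 fold change 0.15, SE 0.05). Neither gene was called. On the FPKM scale, Yap1 was at 18.1 ± 0.59 with GSK126 and 19.8 ± 0.61 with DMSO, and Wwtr1 at 11.6 ± 0.27 and 10.4 ± 0.38 (SD, n = 3). Yap1 made up 61.0% ± 0.32 of the summed YAP and TAZ FPKM with GSK126 and 65.6% ± 1.34 with DMSO (SD, n = 3), with no overlap between libraries.

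Tead1 (chromosome 7, 112679318 to 112906807), a TEAD factor through which YAP and TAZ reach DNA, was uneven between replicates. It had 18.8, 12.6 and 23.5 CPM in GSK126 replicates 1 to 3 and 27.7, 14.2 and 66.5 CPM in DMSO replicates 1 to 3. The groups overlapped, since DMSO replicate 2 lay within the GSK126 range. The highest DMSO library was 4.70 times the lowest, and only 0.246% of 10973 tested genes with at least 5 CPM had a wider ratio within the DMSO group, where the median gene's was 1.12. Its log2 fold change of -0.98 had an SE of 0.52 and was -0.20 without DMSO replicate 3. By length, Tead1 was not the main TEAD transcript in these cells. Tead2 was at 7.16 ± 0.65 FPKM with GSK126 and 7.47 ± 0.77 with DMSO, Tead4 at 2.95 ± 0.13 and 3.47 ± 0.19, Tead1 at 0.671 ± 0.20 and 1.32 ± 0.99, and Tead3 at 0.885 ± 0.03 and 0.825 ± 0.11 (SD, n = 3). Tead2 was highest and Tead4 second in every library, with no overlap between them, while Tead1 and Tead3 could not be ordered beyond their spread. Tead2 made up 61.3% ± 3.06 of the summed TEAD FPKM with GSK126 and 57.2% ± 1.91 with DMSO (SD, n = 3).

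None of the other TEAD and vestigial-like (VGLL) genes passed the test. VGLL proteins bind TEAD factors in place of YAP and TAZ. Vgll1 and Vgll2 had 0 reads, and of the 5 genes tested (Tead2, Tead3, Tead4, Vgll3 and Vgll4) edgeR called 0, with 2 lower and 0 higher at an unadjusted p under 0.05, and DESeq2 and limma also called 0. Vgll3 averaged 15.3 FPKM with GSK126 and 33.0 FPKM with DMSO, and Vgll4 15.7 and 16.4 FPKM. Vgll3 was above Vgll4 in 4 of the 6 libraries, so that the 2 genes could not be ordered beyond the spread of Vgll3. Vgll3 had 160, 115 and 147 CPM in GSK126 replicates 1 to 3, against 391, 125 and 398 CPM in DMSO replicates 1 to 3. As with Tead1, DMSO replicate 2 was the lowest DMSO library and lay within the GSK126 range. The log2 fold change of Vgll3 was -1.12 (SE 0.40, adjusted p = 0.12 by edgeR). Without DMSO replicate 2, the DMSO library within the GSK126 range, it was -1.49 and passed (adjusted p = 0.00623 by edgeR). On removal of any of the other 5 libraries it did not pass (highest adjusted p 0.288 by edgeR, log2 fold change up to -0.88).

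**Figure D2:**
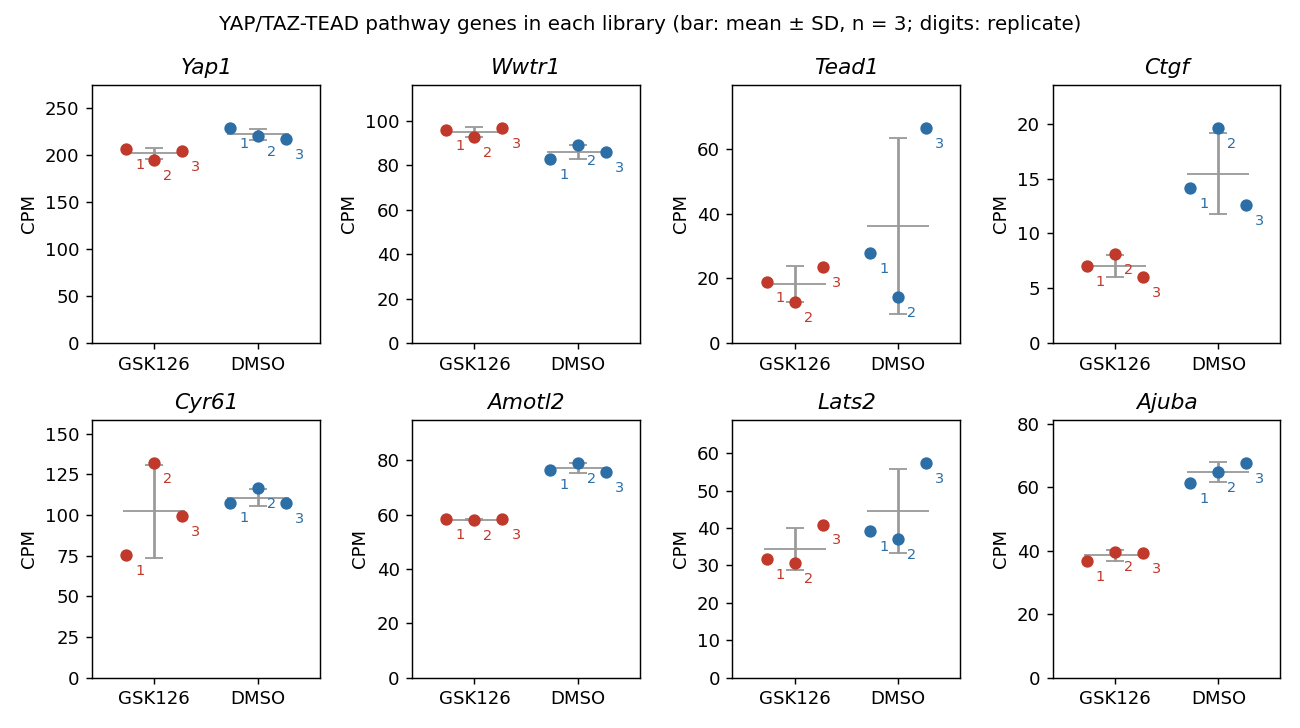
CPM (vertical axes, from 0) of the 8 tested pathway genes in each library, with GSK126 in red and DMSO in blue; digits are replicate numbers, and grey bars are the mean ± SD of 3 libraries. Ctgf, Ajuba and Amotl2 are lower in every GSK126 library, and Tead1 is set apart by DMSO replicate 3 at 66.5 CPM.

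Of the classical targets, Ctgf was lower with GSK126, Cyr61 was abundant with overlapping groups, and Ankrd1 was near 0. Ctgf (chromosome 10, 24595442 to 24598683) encodes connective tissue growth factor, a matrix-associated CCN protein, and had 6.98, 8.09 and 5.996 CPM in GSK126 replicates 1 to 3, against 14.1, 19.6 and 12.6 CPM in DMSO replicates 1 to 3. Its level with GSK126 was 0.455 times that with DMSO (log2 fold change -1.14, SE 0.20), with no overlap between groups. With 1 library left out it ran from -1.26 to -0.93, and Ctgf was not called without GSK126 replicate 1. Ctgf shares 665 bp of exons with Gm15270 on the opposite strand, which had 41 reads in all 6 libraries against 943 for Ctgf.

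Cyr61 (chromosome 3, 145646976 to 145649981), the other CCN gene that serves as a standard YAP/TAZ readout, had 75.5, 132 and 99.2 CPM in GSK126 replicates 1 to 3 and 108, 117 and 108 CPM in DMSO replicates 1 to 3. GSK126 replicate 2 was the highest of all 6 libraries and GSK126 replicate 1 the lowest. The DMSO libraries lay within that range (log2 fold change -0.11, SE 0.18), and without GSK126 replicate 1 the sign turned (0.07). Within the GSK126 group the highest library was 1.75 times the lowest, a ratio that 3.55% of the 10973 genes exceeded. By length, Cyr61 was by far the more abundant of these CCN genes, at 50.6 ± 14.0 FPKM with GSK126 and 54.6 ± 2.64 with DMSO, while Ctgf was at 1.48 ± 0.22 and 3.24 ± 0.78 FPKM (SD, n = 3). Ctgf made up 2.56% ± 0.57 of the summed FPKM of Cyr61, Ctgf, Wisp1 and Nov with GSK126 and 4.92% ± 0.88 with DMSO (SD, n = 3).

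Ankrd1 (chromosome 19, 36111965 to 36119844), a nuclear and sarcomeric ankyrin repeat protein gene known mainly from muscle, had 2, 0 and 0 reads in the GSK126 libraries and 0, 0 and 1 in the DMSO libraries. Its 2 hexamers printed above thus belonged to a gene with almost no transcript in this line. Nuak2 (chromosome 1, 132316126 to 132333488), a kinase of the AMPK family that is a YAP target in other cells, had 0 reads in all 6 libraries, which allows at most 0.204 to 0.221 CPM per library (3 counts, counting error only). Neither gene could be tested. Their relatives were expressed, with Nuak1 at 26.6 ± 2.34 CPM with GSK126 and 34.1 ± 0.77 CPM with DMSO (SD, n = 3) and Ankrd23 at 13.5 ± 3.59 CPM with GSK126 and 14.1 ± 0.80 CPM with DMSO. Ankrd23 shares 2109 bp of its exons on the same strand with Gm42417, which had 143 reads against 1162. Nuak1 fell (log2 fold change -0.36 ± 0.08 SE, with an adjusted p of 0.0365 by edgeR), but the call ended on removal of any library (adjusted p from 0.0515 to 0.115).

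Among the feedback and adaptor genes, Amotl2 and Ajuba were lower with little spread, while Lats2 was lower on average with overlapping groups and was not called. Amotl2 (chromosome 9, 102716672 to 102733418) encodes an angiomotin that binds YAP and keeps it out of the nucleus, and is a YAP target itself. It had 58.4, 58.0 and 58.2 CPM in GSK126 replicates 1 to 3, against 76.6, 79.1 and 75.7 CPM in DMSO replicates 1 to 3. Within the GSK126 group it was among the least variable genes, with 99.8% of the 10973 genes showing a wider ratio of highest to lowest library. The log2 fold change was -0.41 (SE 0.05), and -0.42 to -0.39 with 1 library left out. By length its relative Amotl1 was more abundant, at 21.9 ± 0.63 FPKM with GSK126 and 26.6 ± 1.16 with DMSO, where Amotl2 was at 4.58 ± 0.032 and 6.05 ± 0.16 FPKM (SD, n = 3). Amotl1 fell, with 248 ± 8.25 CPM with GSK126 and 301 ± 12.2 CPM with DMSO (SD, n = 3). Its log2 fold change was -0.28 ± 0.05 SE, with an adjusted p of 0.0135 by edgeR. Leaving out GSK126 replicate 1, DMSO replicate 1 or DMSO replicate 2 ended that call, with edgeR's adjusted p at 0.0589 at most. The third angiomotin gene, Amot, was at 20.9 ± 1.76 CPM with GSK126 and 22.4 ± 2.03 CPM with DMSO (SD, n = 3), a log2 fold change of -0.10 ± 0.10 SE.

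Ajuba (chromosome 14, 54567472 to 54577558), a LIM protein gene whose product binds LATS kinases at junctions and restrains them, had 36.6, 39.8 and 39.2 CPM in GSK126 replicates 1 to 3, against 61.5, 65.0 and 67.8 CPM in DMSO replicates 1 to 3. The groups did not overlap (0.595 times the DMSO level, log2 fold change -0.75, SE 0.07), and the log2 fold change ran from -0.79 to -0.71 with 1 library left out. On the FPKM scale Ajuba was at 7.28 ± 0.29 with GSK126 and 12.2 ± 0.55 with DMSO (SD, n = 3). The other members of its family, Wtip and Limd1, did not pass the test, with log2 fold changes of -0.21 (SE 0.07) and -0.07 (SE 0.06). Ajuba accounted for 29.2% ± 0.83 of the summed FPKM of the 3 family genes with GSK126 and 38.3% ± 0.30 with DMSO (SD, n = 3).

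Lats2 (chromosome 14, 57689662 to 57758388), a kinase that phosphorylates YAP and TAZ and is also their target, had 31.6, 30.6 and 40.9 CPM in GSK126 replicates 1 to 3 and 39.1, 37.1 and 57.5 CPM in DMSO replicates 1 to 3. The groups overlapped, and replicate 3 was the highest library of each. The log2 fold change was -0.37 (SE 0.19), and it was -0.15 without DMSO replicate 3. Lats2 shares 2955 bp of exons on the same strand with Gm49361, which had 389 reads in all libraries against 3320 for Lats2 and itself ranged from 2.23 to 9.38 CPM with GSK126 and from 1.11 to 9.03 CPM with DMSO. With the counts of both summed, an alternative added after the data were seen, the log2 fold change was -0.29. Lats1, the other LATS kinase gene, was more abundant, at 15.4 ± 1.17 FPKM with GSK126 and 14.9 ± 0.55 with DMSO, against 3.47 ± 0.56 and 4.49 ± 1.11 for Lats2 (SD, n = 3).

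**Figure D3:**
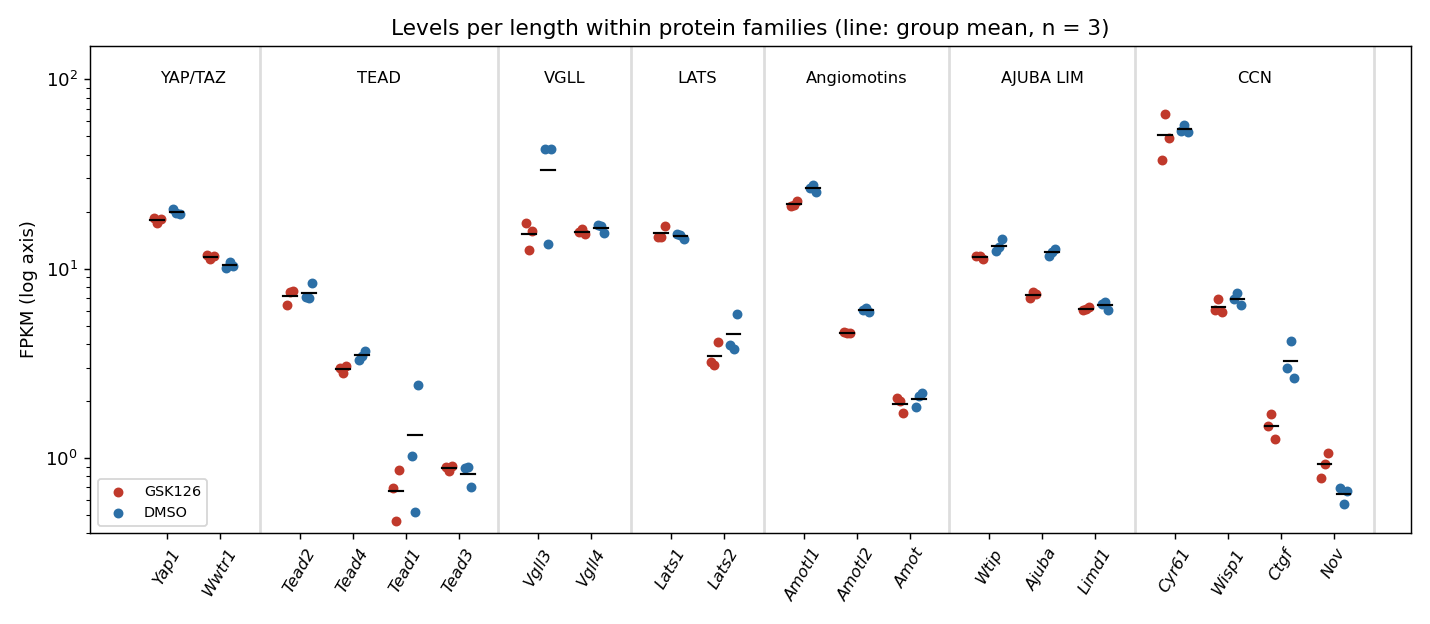
Deposited FPKM (vertical log axis) of pathway genes and their relatives, grouped by protein family, with GSK126 libraries in red on the left and DMSO libraries in blue on the right of each gene; black lines are means of 3 libraries. Cyr61 is the highest of the CCN genes, Tead2 of the TEAD genes and Lats1 of the LATS pair, and Ajuba is lower in each GSK126 library.

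**Figure D4:**
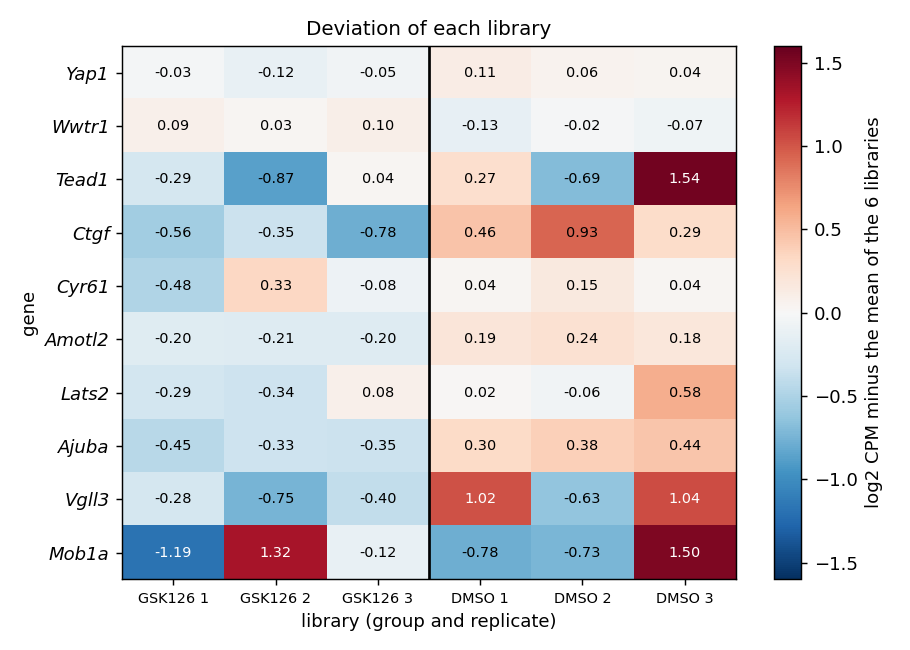
Log2 CPM of the 8 tested pathway genes, Vgll3 and Mob1a in each library, minus the mean of the 6 libraries (colour and printed number); columns are libraries, with GSK126 left of the line and DMSO right of it. Amotl2, Ajuba, Ctgf, Yap1 and Wwtr1 have 1 sign per group, whereas Tead1, Vgll3 and Mob1a differ most between libraries of 1 group.

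Other genes described as YAP/TAZ targets were lower where they passed the test. Their lists too were chosen with earlier results of these data known, so the shares called are a description. Of 16 further genes in a published target signature of human tumours, 13 had enough reads, 3 fell and 0 rose. The share called was 23.1%, against 11.1% of all tested genes, and the median log2 fold change was -0.11, against 0.00. F3, the tissue factor gene that starts blood coagulation, had 23.3, 25.8 and 25.2 CPM with GSK126 and 34.9, 34.8 and 33.5 CPM with DMSO (log2 fold change -0.47 ± 0.07 SE, with an adjusted p of 0.00892 by edgeR), and the call held with any 1 library left out. Myof, a membrane repair protein gene of the ferlin family, fell by 0.41 (SE 0.07) and Crim1, a membrane protein gene that binds BMP ligands, by 0.37 (SE 0.08) on the log2 scale, with adjusted p = 0.0162 and 0.036 by edgeR. The call of Myof ended on removal of any library but the replicates numbered 3, and that of Crim1 on removal of any but DMSO replicate 1 (highest adjusted p 0.069 and 0.114). Crim1 shares 123 bp of exons with Fez2 on the opposite strand. Igfbp3 and Foxf2 had 0 reads. Ptpn14, a phosphatase that binds YAP and is both a target and a restraint, had a log2 fold change of -0.11 (SE 0.06), and the receptor kinase gene Axl 0.17 (SE 0.05), neither past the test.

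Of 12 more genes reported as targets, 7 were tested, 3 fell and 0 rose (42.9% called, against 11.1% of all tested genes, with a median log2 fold change of -0.49). Tnfrsf12a, the receptor of the cytokine TWEAK, fell most, with 17.3, 16.9 and 13.5 CPM with GSK126 and 29.0, 33.3 and 28.7 CPM with DMSO (log2 fold change -0.93 ± 0.12 SE, with an adjusted p of 0.005 by edgeR). Jag1, a Notch ligand gene, had 18.5, 16.1 and 19.4 CPM with GSK126 and 27.7, 30.0 and 29.3 CPM with DMSO (log2 fold change -0.69 ± 0.09 SE, with an adjusted p of 0.00597 by edgeR). Both calls held with any 1 library left out. Dlc1 fell by 0.51 (SE 0.12) on the log2 scale (adjusted p = 0.0366 by edgeR), a call that ended on removal of any library but the replicates numbered 3 (highest adjusted p 0.116). Areg and Ereg, the EGF receptor ligand genes in the list, had 0 reads. At an unadjusted p under 0.05, 2 signature genes were higher and 5 lower, and of the further targets 1 was higher and 4 lower. DESeq2 called 3 genes of each list and limma 2 of each, all of them lower.

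Among the genes of the Hippo kinases, the differences called by edgeR ran from -0.45 to -0.25 on the log2 scale. Of 21 genes of kinases, their adaptors and upstream activators, all were tested, 4 fell and 0 rose (19.0% called, against 11.1% of all tested genes), and the median log2 fold change was 0.01. At an unadjusted p under 0.05, 4 were lower and 1 higher, while DESeq2 called 3 and limma 4, all lower. Rassf1, a scaffold of the MST kinases, had 32.6, 30.2 and 28.3 CPM with GSK126 and 39.1, 41.3 and 44.1 CPM with DMSO (log2 fold change -0.45 ± 0.08 SE, with an adjusted p of 0.0172 by edgeR). Frmd6, a FERM protein gene acting upstream of the kinases, fell by 0.38 (SE 0.08, adjusted p = 0.0274 by edgeR). Map4k4, a kinase that can phosphorylate LATS in place of MST, fell by 0.25 (SE 0.04, adjusted p = 0.0145 by edgeR), and Wwc1, the gene of the scaffold KIBRA, also by 0.25 (SE 0.06, adjusted p = 0.042 by edgeR), all on the log2 scale. The call of Rassf1 ended without GSK126 replicate 2, DMSO replicate 2 or DMSO replicate 3, and that of Map4k4 without GSK126 replicate 1, DMSO replicate 1 or DMSO replicate 2. The call of Frmd6 ended on removal of any library but GSK126 replicate 3, and that of Wwc1 on removal of each of the 6. Rassf1 shares 2496 bp of exons with Gm9917 on the opposite strand, which had 20 reads against 3024. The highest adjusted p was 0.0622 for Rassf1, 0.0698 for Map4k4, 0.0926 for Frmd6 and 0.129 for Wwc1. The MST kinase genes Stk3 and Stk4, and Nf2, the gene of the scaffold merlin, had log2 fold changes of 0.23 (SE 0.16), 0.04 (SE 0.05) and -0.02 (SE 0.04).

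Mob1a, an activating cofactor of LATS named here after its values were seen, was uneven between replicates too. It had 50.0, 285 and 105 CPM in GSK126 replicates 1 to 3 and 66.2, 68.7 and 321 CPM in DMSO replicates 1 to 3. DMSO replicate 3 was the highest of the 6 libraries for Mob1a, Tead1, Vgll3 and Lats2 alike, whereas GSK126 replicate 2 was second for Mob1a and the lowest for the other genes named. Its relative Mob1b ranged only from 59.2 to 72.9 CPM with GSK126 and from 54.7 to 61.3 CPM with DMSO. The log2 fold change of Mob1a was -0.05 (SE 0.78), and a change was not detectable at this spread.

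Among 20 junction proteins, angiomotins, LIM proteins and STRIPAK subunits that act on LATS or YAP, 18 were tested and Amotl1, described above, fell, while 0 rose (5.56% called, against 11.1% of all tested genes, and a median log2 fold change of 0.02). At an unadjusted p under 0.05, 4 were lower and 1 higher, and DESeq2 and limma each called 1, lower. Of 14 close relatives of the pathway genes, 13 were tested, Amotl1 and Nuak1 fell and 0 rose (15.4% called, against 11.1%, and a median log2 fold change of -0.07), with 4 lower and 1 higher at an unadjusted p under 0.05 and 2 called, both lower, by DESeq2 and by limma.

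**Figure D5:**
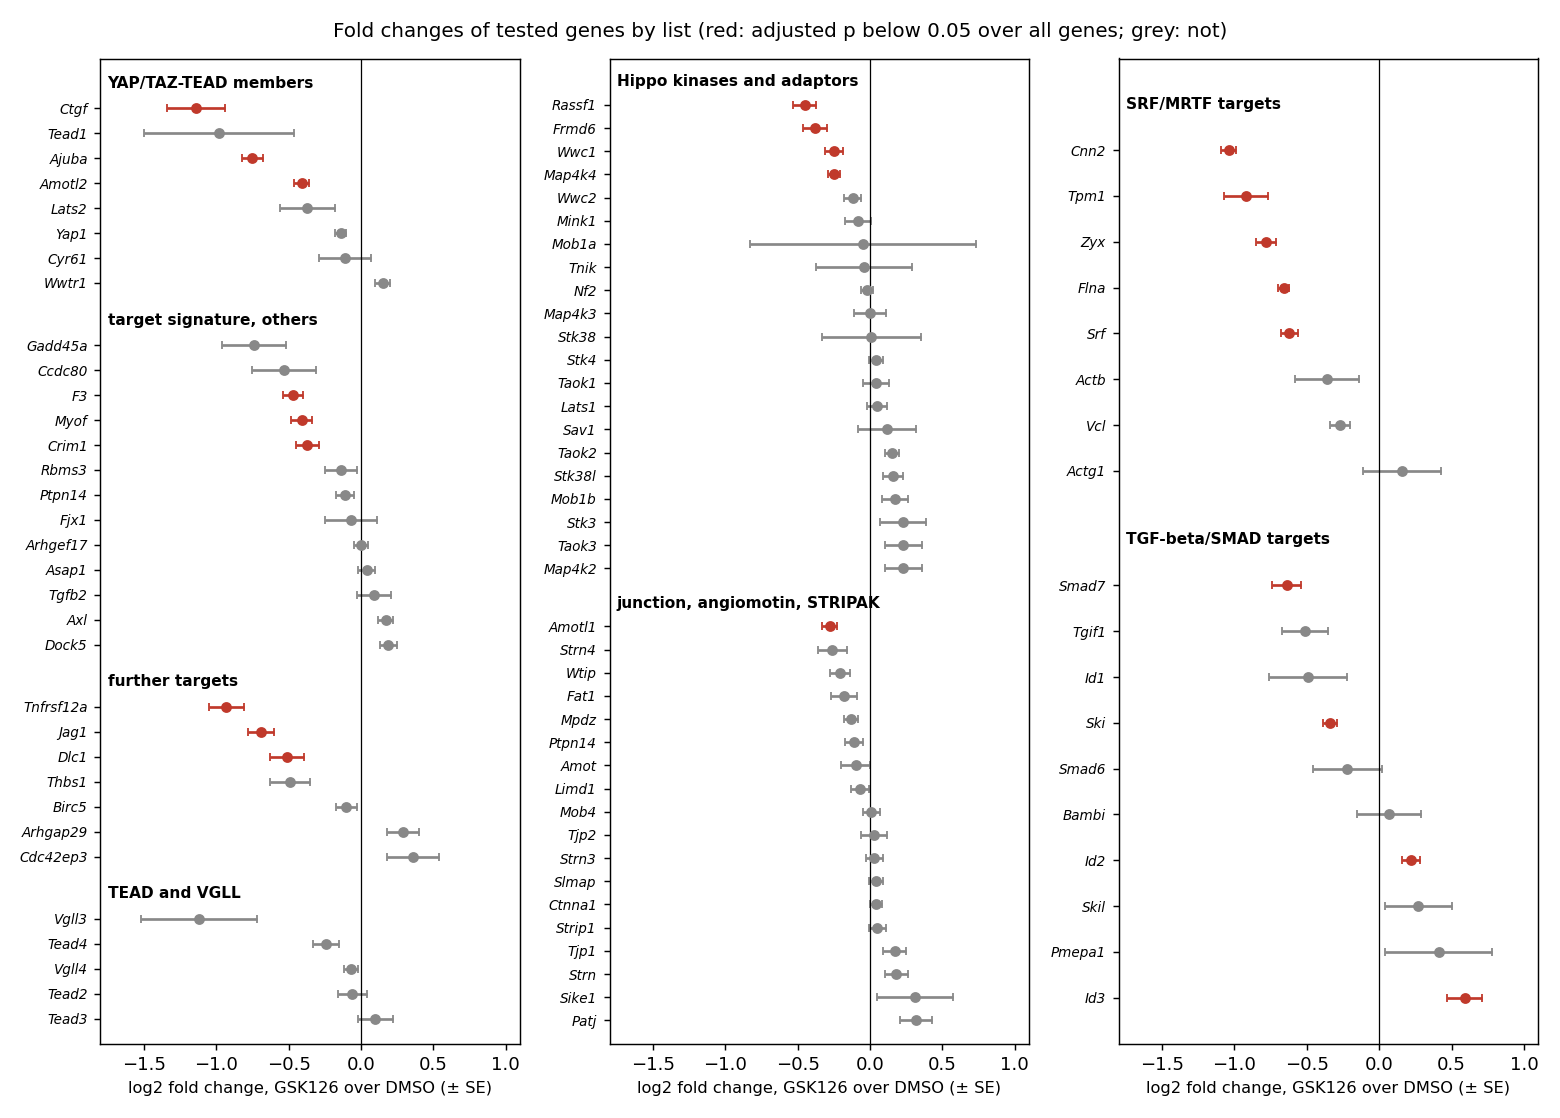
Log2 fold changes of GSK126 over DMSO (horizontal axes, ± SE) for tested genes of the YAP/TAZ-TEAD pathway and related lists (rows), in red where the adjusted p over all genes was below 0.05 and in grey otherwise. The red points of the target, kinase and SRF/MRTF lists lie below 0, and only the TGF-beta/SMAD list has red points on both sides.

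Several YAP/TAZ targets are also reached by SRF with its actin-sensing MRTF cofactors and by TGF-beta signalling through SMADs. A list of each was set beside the pathway, also chosen with earlier results known, so the shares called are a description. Of 14 SRF/MRTF targets, 8 had enough reads, 5 fell and 0 rose (62.5% called, against 11.1% of all tested genes, and a median log2 fold change of -0.64), while 6 were lower and 0 higher at an unadjusted p under 0.05 and DESeq2 called 6 and limma 5, all lower. Cnn2 (calponin), Tpm1 (tropomyosin), Zyx (zyxin) and Flna (filamin) fell by 1.04 (SE 0.05), 0.92 (SE 0.15), 0.78 (SE 0.07) and 0.66 (SE 0.04) on the log2 scale. Srf itself, named after its values were seen, fell by 0.62 (SE 0.06, adjusted p = 0.00156 by edgeR), with 32.5, 34.3 and 33.9 CPM with GSK126 and 51.5, 51.7 and 51.5 CPM with DMSO. Zyx shares 236 bp of exons with Epha1 on the opposite strand. All 5 calls held with any 1 library left out. The tested genes that edgeR did not call were the actin genes Actb and Actg1, and Vcl (vinculin). Their log2 fold changes were -0.36 (SE 0.22), 0.16 (SE 0.27) and -0.27 (SE 0.07). Vcl shares 2090 bp of exons with Ap3m1 on the opposite strand. Of genes typical of smooth muscle, Acta2 and Cnn1 had at most 2 reads in any library, Tagln at most 6 and Myl9 at most 10.

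The TGF-beta/SMAD targets were split. Of 13 genes, 10 were tested, 2 fell and 2 rose (40.0% called, against 11.1% of all tested genes, and a median log2 fold change of -0.08). At an unadjusted p under 0.05, 3 were lower and 2 higher, while DESeq2 called 2 lower and 0 higher, and limma 2 lower and 1 higher. Smad7, an inhibitory SMAD gene, had 10.6, 9.72 and 9.34 CPM with GSK126 and 16.1, 14.6 and 15.6 CPM with DMSO (log2 fold change -0.64 ± 0.10 SE, with an adjusted p of 0.00857 by edgeR). The SMAD corepressor gene Ski fell by 0.34 (SE 0.05, adjusted p = 0.0112 by edgeR) on the log2 scale. Id3 and Id2, inhibitors of basic helix-loop-helix factors that respond mainly to BMP signals, rose by 0.59 (SE 0.12) and 0.22 (SE 0.06), with adjusted p = 0.0259 and 0.0442 by edgeR, calls that ended for Id3 on removal of any library and for Id2 of any but GSK126 replicate 3 (highest adjusted p 0.0912 and 0.145). Whether the lower Ctgf, Amotl2 and Ajuba went with YAP/TAZ-TEAD, SRF/MRTF or SMAD activity was not tested.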

How the data were processed

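RNA of 3 GSK126 and 3 DMSO libraries of B16F10 cells was sequenced. CASAVA 1.8, HISAT2 and the builds GRCm38.p4 and mm10 are named in the submitters' processing notes, without their roles. Not given in the sources used here are the counting tool, its strand setting and the annotation, so reads of overlapping genes cannot be told apart. The deposited files hold unnormalized read counts per gene from the authors, used for the count tests, and FPKM values, used for levels across genes. Per gene, the deposited FPKM were proportional to count over library total to within a ratio of 1.000009 (10025 genes with enough reads).

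Groups were taken from the treatment label. Counts were fitted in R 4.3.3 with edgeR 4.0.16 (filterByExpr, TMM, quasi-likelihood F test, group as the only term), with Benjamini-Hochberg adjustment over 13601 genes and a threshold of 0.05; SEs came from the F statistic. The TMM factors ran from 0.9937 to 1.007, and the biological coefficient of variation was 0.119. Alternatives used DESeq2 1.42.0 (size factors, Wald test), limma 3.58.1 on log2(FPKM + 0.1) or log2(FPKM + 1) for genes with a mean FPKM of at least 0.5, no filter, a replicate block, and each library left out. Tests were tried on simulated data first. Replicates of a group differed beyond counting noise (chi-square over degrees of freedom 7.52 to 14.2).

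The 10 genes and all lists were chosen with earlier results of these data known. Named were the 10 genes, up to 4 called genes per list with the largest change and at least 1 CPM, or else the most abundant gene, and relatives by level; other names were added after their values were seen. Exon sharing was read from GENCODE M21, in which 54123 of 54838 identifiers have the files' positions. Promoters are from RefSeq, GRCm38.p6.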

Additional observations from a re-analysis of the deposited data

How the results depend on the processing

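Of the 3 pathway genes called lower, all were also called under each alternative run, except Ctgf without GSK126 replicate 1; they were chosen with this contrast known, so this is no sign of stability. The log2 fold change of Cyr61 was 0.07 without GSK126 replicate 1 and negative otherwise (-0.34 at the lowest). Over all genes, 1503 were called, against 899 with no filter on low counts, and 529 to 1243 with 1 library left out. Whether the replicate numbers pair the libraries could not be decided. Deviations from the group mean correlated at 0.03, -0.02 and -0.07 between same-numbered libraries, and not every library correlated best with its own number. Deviations centred within groups of 3 libraries constrain each other, so these values cannot exclude pairing. With the replicate block, 408 genes were called in all, 0 each in the lists of Hippo kinases, junction proteins, signature targets and relatives, and 2 of the TGF-beta/SMAD targets, which also had 2 with DESeq2. With no filter, 2 Hippo kinase genes and 1 relative were called. With 1 library left out, calls ran from 0 to 3 for Hippo kinases, 0 to 2 for junction proteins, 0 to 1 for TEAD and VGLL genes, 1 to 2 for signature targets, 0 to 1 for relatives, 2 to 3 for further targets, 2 to 3 for TGF-beta/SMAD targets and 5 to 5 for SRF/MRTF targets. Each such set has fewer samples. The cause of the other shifts was not tested. Low counts limited what was detectable for Nov (23 to 44 reads per library) and Ankrd2 (11 to 20).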
